A study of Mus musculus with 8 samples.

Results

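The collagen genes are described here in hippocampus of mice homozygous for a mutant allele of Wfs1, which encodes wolframin, a membrane protein of the endoplasmic reticulum. Members were all entries of the count table whose symbol reads Col, digits, the letter a and digits, which gave 43 of 24078 entries. Entries with a duplicate suffix were to be left out, and no collagen entry carried one. They comprised 11 fibrillar genes, the 6 type IV genes of basement membranes and 26 others. The 4 homozygous animals carried the Wfs1tm1Koks allele on both chromosomes, and the 4 wild-type animals are listed under the same strain name. Neither age nor sex is given in the sources used here, and no further allele or treatment is named. Each library held total RNA of dissected hippocampus from a single animal, depleted of ribosomal RNA and sequenced with paired reads on a SOLiD 4 instrument. Values are listed below in the order of wild-type replicates 7, 8, 9 and 10 and homozygous replicates 15, 16, 17 and 18.

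Collagens are extracellular proteins built from chains that wind into a triple helix. Fibrillar collagens form the cables of connective tissue, type IV collagens form the sheet-like network of basement membranes, and the remaining classes coat fibrils, form beaded filaments or cross the cell membrane. In brain, fibrillar collagens are best known from meninges and the walls of larger vessels, type IV from the vascular basement membrane, and a few transmembrane collagens from neurons. Chains are hydroxylated and folded in the endoplasmic reticulum before secretion.

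Library totals ran from 3250949 to 6747411 counts, and levels are given as CPM, the usual count scaled to sequencing depth, here with TMM-adjusted library sizes. Every homozygous library had less Wfs1 than any wild-type library (52.0 ± 7.49 CPM in wild-type and 14.8 ± 2.61 CPM in homozygous, SD, n = 4 each). Of 20478 genes tested, 20.7% were called higher and 20.4% lower in homozygous hippocampus, or 41.1% in either direction. A call means an adjusted p under 0.05 (edgeR quasi-likelihood, Benjamini-Hochberg over all tested genes). A set of 132 comparison genes, chosen by family and described below, had a median log2 fold change of 0.35, against 0.05 for all genes. Their median density, that is, CPM per kilobase of exon, was 3.41 in wild-type. Results were also computed with the trend of fold change on abundance or on density removed. These values are given where they end the call of a collagen or pathway gene named here, and as counts for the marker lists. In bulk tissue, fewer cells of a type and less RNA per cell cannot be told apart.

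Most collagen genes had modestly larger values in homozygous hippocampus, and 3 stood far from the rest. Col5a2 rose 19-fold and Col14a1 rose 5.48-fold, whereas Col6a3 was 9.94-fold lower. All 43 members passed the low-count filter, and 19 of them (44.2%) were called higher and 2 (4.65%) lower, against the 20.7% and 20.4% of all genes. Only Col5a2, Col14a1 and Col6a3 were called with a change of at least 4-fold, as were 2.17% of all genes. The fitted log2 fold change was above 0 for 39 members (90.7%) and for 53.1% of all genes tested, with medians of 0.38 and 0.05. In 21 members all 4 homozygous values lay above all 4 wild-type values, and in 1 they lay below, while 18.8% of all genes did so in each direction. These shares describe the list and were not tested as a set. Annotated genes without known function lie inside introns of Col5a2 (1 gene), Col6a3 (1) and Col14a1 (3) and share no exon with them. Whether their reads entered the collagen counts is not known. Of the called members, Col4a1, Col5a1, Col6a4, Col6a6, Col7a1, Col10a1, Col20a1 and Col22a1 overlap another annotated gene in an exon. For Col10a1 that is the protein-coding gene Nt5dc1, and for Col4a1 it is Col4a2. How shared reads were assigned is not known either.

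**Figure D1:**
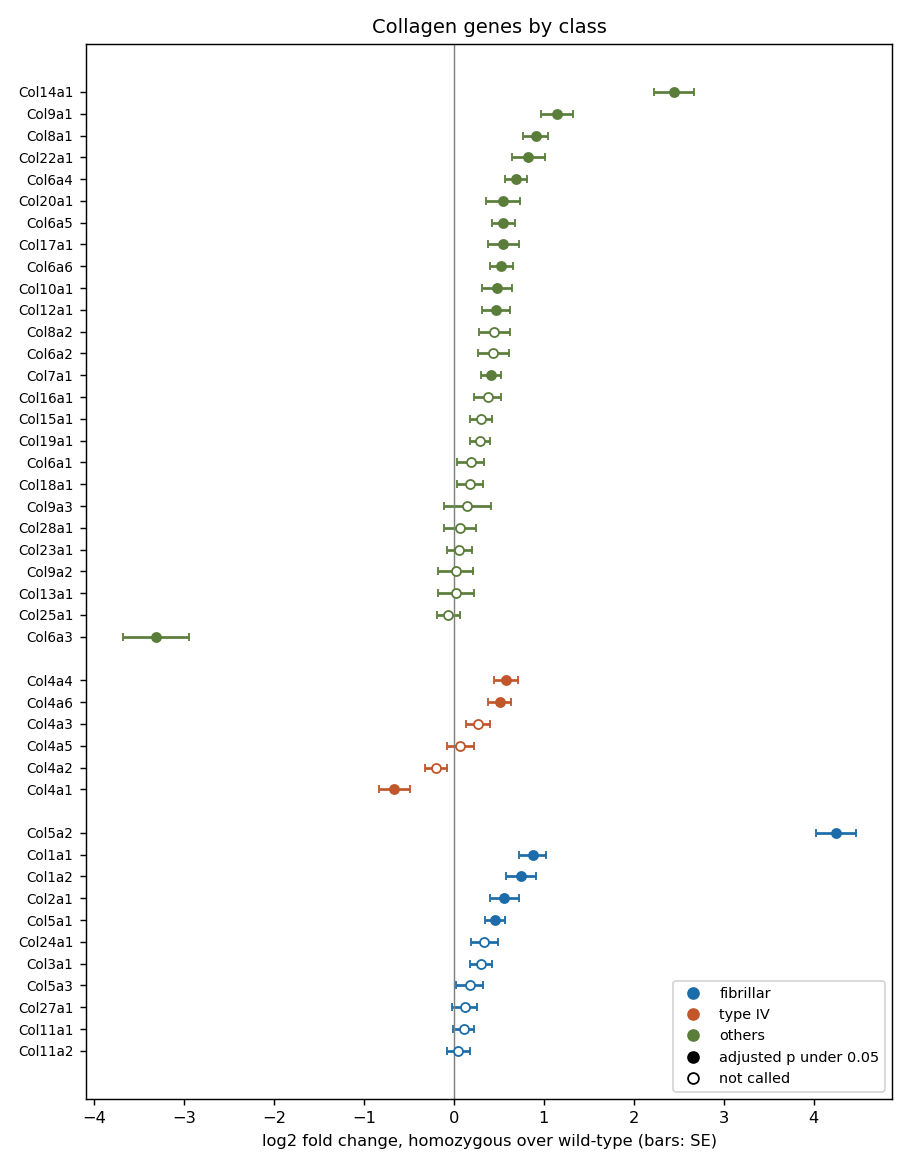
Log2 fold change, homozygous over wild-type, of each of the 43 collagen genes (x axis; bars are SE) by class, with filled points for adjusted p under 0.05. Most points lie just right of 0, while Col5a2 at 4.25, Col14a1 at 2.45 and Col6a3 at -3.31 stand apart.

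Among the fibrillar collagens 5 of 11 were called higher and none lower, the median log2 fold change being 0.34 and all 11 fitted values above 0. Their summed level was 400 ± 16.3 CPM in wild-type and 1007 ± 142 CPM in homozygous libraries, of which the 10 genes other than Col5a2 made up 372 ± 18.3 and 471 ± 9.15 CPM. Col5a2 encodes the alpha-2 chain of type V collagen, a minor fibrillar collagen that controls the diameter of type I fibrils. It is encoded at chr1:45374321-45503282 (mm10, minus strand). Libraries gave 26.4, 24.4, 31.4 and 29.9 CPM in wild-type and 524, 732, 497 and 390 CPM in homozygous hippocampus. The lowest homozygous value was far above the highest wild-type value. Means were 28.0 ± 3.21 and 536 ± 143 CPM (SD, n = 4 each), and edgeR gave a log2 fold change of 4.25 (SE 0.22, adjusted p 4.71e-07). Per kilobase of exon its level moved from 2.92 to 55.9 CPM. Over both genotypes the mean density exceeded that of 95.2% of the protein-coding genes tested.

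The other type V chains did not share this size of change. Col5a1, the alpha-1 chain, was at 48.4, 44.4, 49.2 and 52.6 CPM in wild-type and 63.4, 66.5, 73.4 and 65.2 CPM in homozygous libraries, with no overlap between genotypes (log2 fold change 0.46, SE 0.11, adjusted p 0.0073, edgeR). Col5a3 gave 26.4 ± 1.88 and 30.0 ± 5.59 CPM and was not called (adjusted p 0.335). Col3a1, which encodes the type III collagen of elastic tissues, is the nearest gene to Col5a2 in the table, at chr1:45311538-45349706. It gave 27.2 ± 2.56 and 33.3 ± 1.88 CPM (log2 fold change 0.30, adjusted p 0.0702). The 3 tested genes within 500 kb of Col5a2, Col3a1 among them, had log2 fold changes from -0.22 to 0.30, and none was called.

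Both chains of type I collagen, the main collagen of connective tissue, rose. Col1a1 was at 25.9, 29.5, 19.7 and 21.9 CPM in wild-type and 39.2, 43.9, 48.3 and 46.1 CPM in homozygous libraries. Col1a2 was at 36.4, 24.4, 30.5 and 38.7 CPM and at 61.5, 60.7, 54.4 and 42.6 CPM. Neither gene overlapped between genotypes, although homozygous replicate 18 came close to wild-type replicate 10 for Col1a2. The log2 fold changes were 0.88 (SE 0.15, adjusted p 0.00104) and 0.75 (SE 0.17, adjusted p 0.00509, edgeR). Col2a1, the cartilage collagen, was the sparsest member, with 1.6 CPM per kilobase of exon in wild-type and 2.36 in homozygous libraries. It was called higher (log2 fold change 0.56, adjusted p 0.0163), but the adjusted p was 0.0502 after removal of the abundance trend and 0.103 after removal of the density trend. The remaining fibrillar genes Col11a1, Col11a2, Col24a1 and Col27a1 had log2 fold changes from 0.05 to 0.34 and were not called. Col11a2 was the fibrillar gene of highest density in wild-type, with 8.76 CPM per kilobase.

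**Figure D2:**
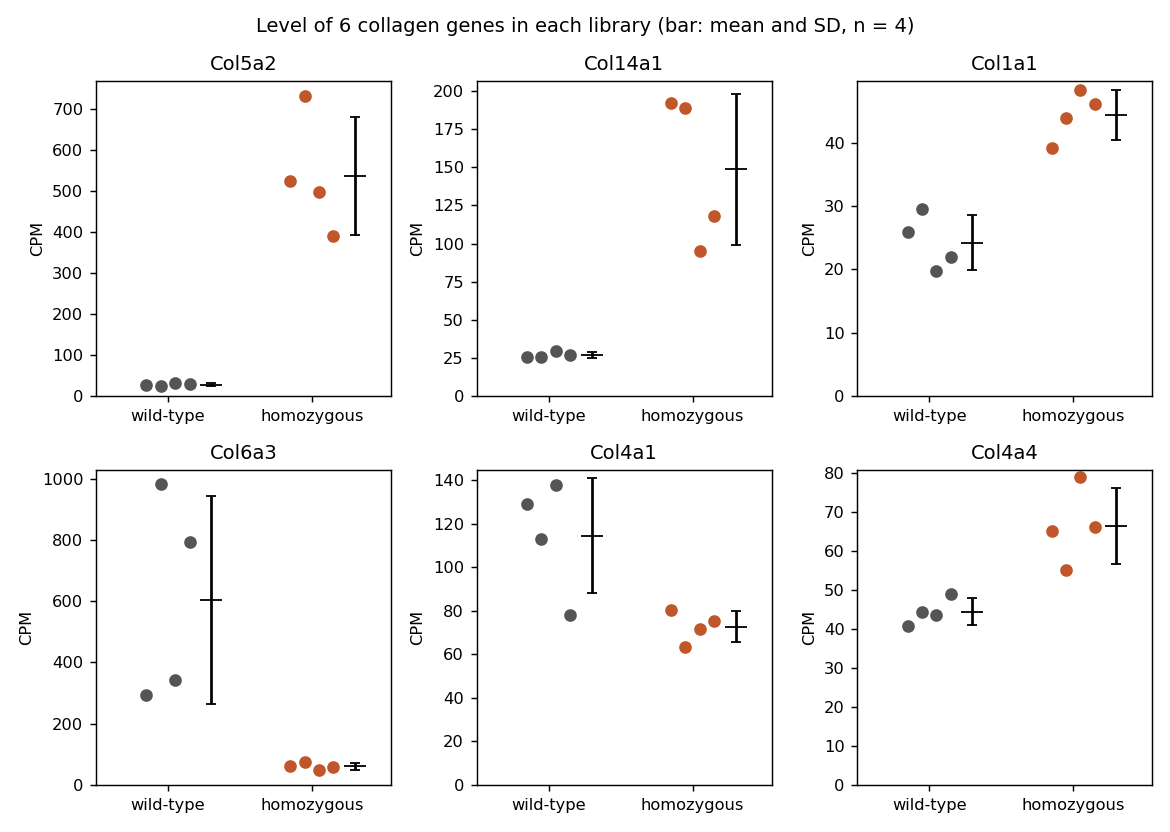
CPM of 6 collagen genes in each library (y axes start at 0; points are libraries, bars the mean and SD, n = 4). Col5a2 and Col14a1 are higher and Col6a3 lower in every homozygous library, and for Col4a1 wild-type replicate 10 at 78.0 CPM lies below homozygous replicate 15 at 80.5.

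The 6 type IV genes went different ways, with 2 called higher, 1 lower and 3 in neither direction. They stand in the genome as head-to-head pairs, each pair reading outward from a shared control region. For Col4a4 and Col4a3 the annotated starts are 71 bases apart, and for Col4a1 and Col4a2 the annotated transcripts overlap by 22 bases at their starts. For Col4a6 and Col4a5 the gap is 1308 bases. The stretches between or at the starts are shown because each lies at the start of members that were compared with one another. Sequences come from RefSeq windows on GRCm38.p6, and capitals mark matches to GGGCGG, the core of a GC box, on either strand. They are chr1:82586850-82586920 (plus strand), chr8:11312805-11312826 (plus strand) and the 250 bases before the start of Col4a6, chrX:141474077-141474326 (minus strand).
Col4a4 to Col4a3: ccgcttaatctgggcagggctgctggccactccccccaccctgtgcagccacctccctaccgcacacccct
Col4a2 and Col4a1 starts: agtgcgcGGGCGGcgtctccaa
Col4a6 upstream: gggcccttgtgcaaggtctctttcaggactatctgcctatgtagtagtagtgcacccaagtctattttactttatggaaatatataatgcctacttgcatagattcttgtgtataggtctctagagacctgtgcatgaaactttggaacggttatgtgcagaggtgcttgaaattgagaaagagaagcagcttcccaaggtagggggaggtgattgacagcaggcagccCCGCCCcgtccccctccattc

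The motifs searched on both strands were GGGCGG for the GC box, CCAAT for the box of that name, and TATAAA for the TATA box. Their letters were searched separately. Of 32851 windows of 250 bases before a RefSeq start, 32.7% held GGGCGG, 33.8% CCAAT and 12.4% TATAAA. The table held 38 such windows for 35 of the 43 members, and 22, 13 and 5 of these held the respective motif. These are matches of letters only.

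Col4a1 and Col4a2 encode the chains of the collagen network present in nearly all basement membranes, including that of brain capillaries. Col4a1 was the densest type IV gene and fell, from 129, 113, 138 and 78.0 CPM in wild-type to 80.5, 63.3, 71.7 and 75.1 CPM in homozygous libraries. The genotypes overlapped through wild-type replicate 10 alone. The log2 fold change was -0.66 (SE 0.17, adjusted p 0.0113, edgeR), and it ran from -0.81 to -0.55 when each library was left out in turn, with the call kept each time. Col4a2 was at 52.1, 48.5, 60.2 and 55.5 CPM and at 50.7, 40.4, 46.0 and 52.0 CPM, and was not called (log2 fold change -0.20, SE 0.12, adjusted p 0.225). With library totals as the only scaling its log2 fold change was 0.00, while that of Col4a1 was -0.45 (adjusted p 0.0486).

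The chains of the specialised type IV networks, known from kidney, ear and eye, were sparser. Col4a4 rose from 40.7, 44.4, 43.5 and 49.0 CPM to 65.0, 55.2, 78.9 and 66.0 CPM without overlap (log2 fold change 0.58, SE 0.13, adjusted p 0.00561, edgeR). Its partner Col4a3 was at 44.1, 43.4, 39.8 and 43.1 CPM and at 43.1, 47.6, 58.7 and 56.4 CPM, overlapping at the low end (log2 fold change 0.27, adjusted p 0.108). Col4a6 rose from 32.4, 27.1, 25.2 and 26.9 CPM to 45.0, 38.9, 35.3 and 39.6 CPM (log2 fold change 0.51, SE 0.13, adjusted p 0.00914), and was not called once the density trend was taken out (0.34, adjusted p 0.061). Col4a5, the X-linked chain whose loss in humans causes Alport syndrome, was at 39.0, 47.1, 30.6 and 38.7 CPM and at 37.1, 36.0, 49.2 and 39.9 CPM (log2 fold change 0.07, adjusted p 0.744). The summed level of the 6 genes was 322 ± 21.7 CPM in wild-type and 318 ± 25.5 CPM in homozygous libraries.

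Type VI collagen forms beaded filaments near basement membranes, from alpha-1 and alpha-2 chains joined by one more chain. Col6a3, the usual partner of the other two, fell more than any other member. It is encoded at chr1:90765923-90843971 (mm10, minus strand), and the 250 bases before its RefSeq start are chr1:90843972-90844221 (minus strand), shown as the upstream sequence of the member that fell furthest.
Col6a3 upstream: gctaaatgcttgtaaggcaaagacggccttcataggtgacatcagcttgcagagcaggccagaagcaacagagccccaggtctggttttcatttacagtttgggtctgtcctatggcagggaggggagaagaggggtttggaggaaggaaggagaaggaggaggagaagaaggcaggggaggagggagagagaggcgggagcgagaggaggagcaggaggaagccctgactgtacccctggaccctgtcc

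That stretch held no match to any of the 3 motifs. Col6a3 stood at 293, 983, 343 and 795 CPM in wild-type and 61.5, 74.1, 49.4 and 57.5 CPM in homozygous libraries. Wild-type libraries differed widely among themselves, replicates 8 and 10 lying above replicates 7 and 9, yet the lowest was well above every homozygous value. Means were 604 ± 339 and 60.6 ± 10.3 CPM (log2 fold change -3.31, SE 0.37, adjusted p 0.000122, edgeR). Leaving out each library in turn gave -3.54 to -2.99. Of 9 tested genes within 500 kb, the small GTPase gene Rab17 (log2 fold change 1.60) and Espnl (0.75) were called higher and Lrrfip1 (-0.49) lower.

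No other type VI chain was called lower. The 5 genes other than Col6a3 summed to 138 ± 6.90 CPM in wild-type and 194 ± 7.68 CPM in homozygous libraries. Col6a1 gave 29.9 ± 3.22 and 34.5 ± 6.81 CPM (adjusted p 0.331) and Col6a2 19.7 ± 1.48 and 26.9 ± 6.01 CPM (log2 fold change 0.44, adjusted p 0.0535), neither being called. Col6a4, Col6a5 and Col6a6, alternative chains encoded side by side on chromosome 9, rose. Col6a4 went from 21.4, 22.0, 21.7 and 22.5 CPM to 32.1, 34.6, 33.5 and 41.4 CPM (log2 fold change 0.69, SE 0.12, adjusted p 0.00165, edgeR). Col6a5 went from 35.1, 49.2, 42.8 and 39.3 CPM to 65.2, 56.6, 59.9 and 60.5 CPM (0.55, SE 0.13, adjusted p 0.00602). For both, no homozygous value fell within the wild-type range. Col6a6 was called too (0.53, adjusted p 0.00896), but not with the density trend removed (0.35, adjusted p 0.0635).

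Collagens that decorate fibrils, known as FACITs, included 5 of 9 called higher and none lower, the median log2 fold change being 0.47 and all 9 fitted values above 0. Col14a1 encodes undulin, a collagen that binds the surface of type I fibrils. It is encoded at chr15:55307750-55520803 (mm10, plus strand). Levels were 25.9, 25.8, 29.8 and 26.7 CPM in wild-type and 192, 189, 95.4 and 118 CPM in homozygous libraries. Replicates 15 and 16 were higher than 17 and 18, and all 4 were well above wild-type. Means were 27.1 ± 1.90 and 148 ± 49.3 CPM (log2 fold change 2.45, SE 0.22, adjusted p 2.97e-05, edgeR). Of 8 tested genes within 500 kb, Mtbp (log2 fold change 3.06) and Dscc1 (1.42) were called higher and Enpp2 (-2.31) lower. Enpp2 encodes autotaxin, an abundant product of choroid plexus.

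Col9a1, a type IX chain that coats cartilage fibrils, rose from 16.5, 13.9, 12.5 and 15.8 CPM to 32.0, 43.6, 26.6 and 27.9 CPM without overlap (log2 fold change 1.15, SE 0.18, adjusted p 0.000779, edgeR). Its partner chains Col9a2 (0.02, adjusted p 0.934) and Col9a3 (0.15, adjusted p 0.66) were not called. Col22a1, found at tissue junctions such as that of muscle and tendon, rose from 26.4, 23.7, 22.8 and 21.7 CPM to 48.8, 50.5, 28.0 and 39.6 CPM, homozygous replicate 17 lying closest to wild-type (0.83, SE 0.18, adjusted p 0.00431). Col12a1 (0.47, adjusted p 0.0333) and Col20a1 (0.55, adjusted p 0.0346) were called, yet their genotypes overlapped. Neither call held once the density trend was taken out (adjusted p 0.148 and 0.119). The Col20a1 call ended with the abundance trend removed as well (0.48, adjusted p 0.0624). Both calls also ended without any of several libraries: wild-type replicates 7, 9 and 10 and homozygous replicate 16 for either gene, homozygous 15 for Col12a1 and homozygous 18 for Col20a1. Col20a1 was then 0.36 (adjusted p 0.0978) without homozygous replicate 18, and Col12a1 was 0.37 (adjusted p 0.0782) without homozygous replicate 16. Col16a1 (0.38, adjusted p 0.0615) and Col19a1 (0.29, adjusted p 0.0637), of which the latter is expressed by neurons, were not called. Both were called with library totals as the scaling (adjusted p 0.0122 and 0.00596), and neither with the density trend removed. Col19a1, which did not overlap between genotypes, was also called with the abundance trend removed (0.38, adjusted p 0.0229).

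Of the short-chain collagens, which form hexagonal networks, Col8a1 rose from 34.7, 48.5, 35.6 and 41.0 CPM to 65.5, 68.8, 80.4 and 84.5 CPM (log2 fold change 0.91, SE 0.14, adjusted p 0.000783, edgeR). Every homozygous value exceeded every wild-type value. Col8a2 was at 34.9, 41.4, 42.5 and 44.6 CPM and at 59.9, 37.8, 65.3 and 59.6 CPM, homozygous replicate 16 lying within the wild-type range. It missed the threshold (0.45, adjusted p 0.0504) and was called once the density trend was taken out (0.49, adjusted p 0.0411). Col10a1, the collagen of hypertrophic cartilage, was at 9.43, 12.5, 9.46 and 12 CPM and at 13.8, 18, 14.5 and 13.8 CPM (0.48, adjusted p 0.0435). That call ended without any of 7 single libraries, wild-type replicate 8 being the exception, and reached an adjusted p of 0.119 without wild-type replicate 9. It also ended with the abundance trend (adjusted p 0.129) or the density trend removed (adjusted p 0.161).

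Of the members not called, the transmembrane collagen gene Col25a1 was the densest in wild-type, with 11.0 CPM per kilobase. Col25a1, whose shed ectodomain was found in amyloid plaques, was at 146, 151, 142 and 128 CPM in wild-type and 124, 132, 126 and 164 CPM in homozygous libraries (log2 fold change -0.06, SE 0.13, adjusted p 0.749, edgeR). The genotypes overlapped, and the value became 0.23 with the abundance trend removed and 0.14 with library totals as the scaling. Col17a1, a hemidesmosome protein of skin, went from 14.4, 19.0, 17.6 and 18.3 CPM to 23.1, 20.3, 26.0 and 31.7 CPM (0.55, SE 0.17, adjusted p 0.0218). It was not called with the abundance trend (adjusted p 0.055) or the density trend removed (adjusted p 0.113). Nor was it called without wild-type replicate 7 (0.46, adjusted p 0.0679) or homozygous replicate 18 (0.42, adjusted p 0.0629). Col13a1 (0.02) and Col23a1 (0.06) were not called.

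Multiplexins are basement membrane collagens that carry antiangiogenic fragments, endostatin in the case of Col18a1. Col15a1 was at 21.2, 20.3, 18.3 and 18.3 CPM and at 25.4, 23.8, 23.4 and 23.2 CPM, without overlap but not called (log2 fold change 0.30, adjusted p 0.0732, edgeR). Col18a1 was at 29.8, 33.9, 25.5 and 22.7 CPM and at 31.1, 29.3, 31.2 and 34.6 CPM (0.18, adjusted p 0.326). Col7a1, the anchoring fibril collagen of skin, rose from 37.5, 34.9, 38.0 and 36.0 CPM to 46.6, 51.7, 46.6 and 50.5 CPM (0.41, SE 0.11, adjusted p 0.00982), and was not called once the density trend was taken out (0.24, adjusted p 0.0997). Col28a1 was at 15.6, 20.3, 11.9 and 18.9 CPM and at 18.2, 15.7, 17.1 and 18.2 CPM (0.07, adjusted p 0.767). In all, 12 of the 26 genes outside the fibrillar and type IV classes were called higher and 1 lower, with a median of 0.43.

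Member densities were set beside those of the comparison genes. A set of 132 genes of the keratin, Tas1r and Tas2r, Cyp2 and Mrgpr families, with little known role in hippocampus, had a 10th to 90th percentile of 1.77 to 7.34 CPM per kilobase of exon in wild-type, and of 2.23 to 8.20 in the homozygous group. In wild-type, 35 members lay inside that range, 7 above it and Col2a1 below it. The range was wide. Col6a1, inside it, exceeded 61.3% of the protein-coding genes tested in mean density over both genotypes. Those above were Col4a1, Col4a2, Col6a3, Col8a2, Col11a2, Col19a1 and Col25a1, of which Col4a1 and Col6a3 fell and the other 5 were not called. All 19 members called higher lay inside or below the range in wild-type, and among them Col5a2, Col14a1 and Col8a1 lay above it in homozygous libraries. Of the 132 comparison genes themselves, 30 (22.7%) were called higher and 7 lower, with a median log2 fold change of 0.35. The collagen median of 0.38 was thus close to theirs, and the share of 44.2% called higher was larger. Calls also depend on total counts, and the 2 sets were not matched on exon length or counts. The difference between these shares was not tested.

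**Figure D3:**
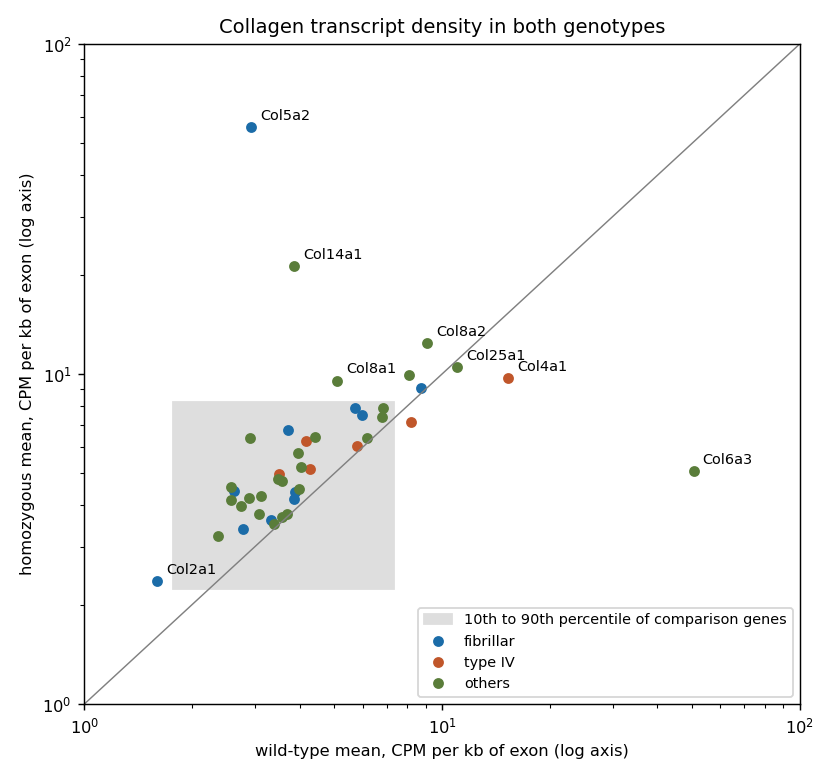
Mean CPM per kilobase of exon of each collagen gene in wild-type (x, log axis) and homozygous libraries (y, log axis), with equality as the line and the 10th to 90th percentile of 132 comparison genes in grey. Col5a2 and Col14a1 leave the grey range upward, from 2.92 to 55.9 and from 3.86 to 21.2, and Col6a3 enters it, from 50.5 to 5.07.

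The share of collagen genes called higher depended on how the trends were treated. With the abundance trend removed 17 members (39.5%) were called higher, against 16.9% of all genes, and 2 lower, against 18.2%. With the density trend removed 12 members (27.9%) were, against 15.6%, and 2 were lower, against 18.7% (34.3% of all genes in either direction). The medians were 0.24 and -0.04. With library totals as the only scaling 29 members (67.4%) were called higher, against 32.4%, and 2 lower, against 11.8%. There the median of all genes moved from 0.05 to 0.25 and that of the members from 0.38 to 0.58. Col4a1 and Col6a3 were the 2 called lower under each of these settings. Of the 21 calls, 13 were kept under all 17 alternative fits: Col1a1, Col1a2, Col5a1, Col5a2, Col4a1, Col4a4, Col6a3, Col6a4, Col6a5, Col8a1, Col9a1, Col14a1 and Col22a1.

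**Figure D4:**
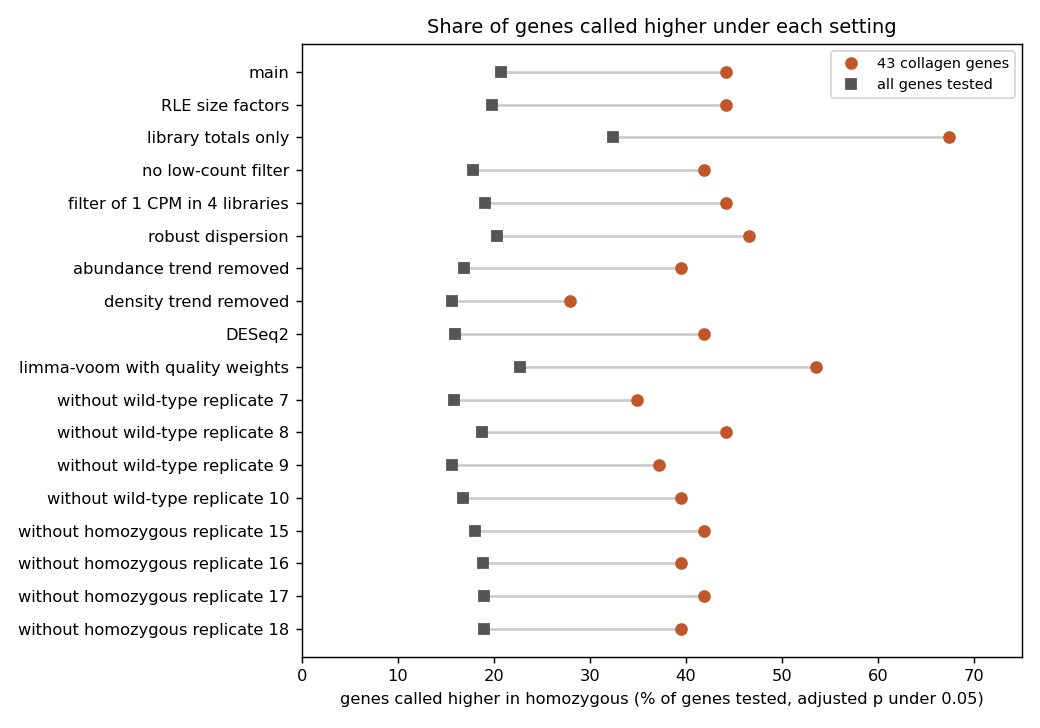
Share of genes called higher in homozygous hippocampus (x, percent of genes tested) among the 43 collagen genes and among all genes, for the reported fit (main) and 17 alternative fits. The collagen share runs from 27.9% with the density trend removed to 67.4% with library totals only.

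Chains that assemble with each other, or share a control region, were also compared as a ratio within each library, which no library scaling can change. The 6 pairs were chosen with the values known. The Col5a2 to Col5a1 ratio was 0.544, 0.55, 0.638 and 0.568 in wild-type and 8.27, 11.0, 6.76 and 5.98 in homozygous libraries, a difference of 3.76 in mean log2 ratio. The Col6a3 to Col6a1 ratio was 9.38, 37.2, 10.2 and 28.2 and then 2.16, 2.22, 1.12 and 1.80, a difference of -3.34. The Col4a4 to Col4a3 ratio was 0.922, 1.02, 1.09 and 1.14 and then 1.51, 1.16, 1.34 and 1.17, a difference of 0.31. These 3 ratios did not overlap between genotypes. Such separation fixes p at 0.0286 in a two-sided exact permutation test, the smallest that 4 against 4 libraries allow (0.0571 adjusted over the 6 pairs, which misses 0.05). With pairs chosen on known values, these p-values add nothing to the listed ratios. Ratios of Col4a6 to Col4a5 (difference 0.44, exact permutation p 0.0857), Col4a1 to Col4a2 (-0.43, p 0.143) and Col1a1 to Col1a2 (0.12, p 0.657) overlapped between genotypes.

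**Figure D5:**
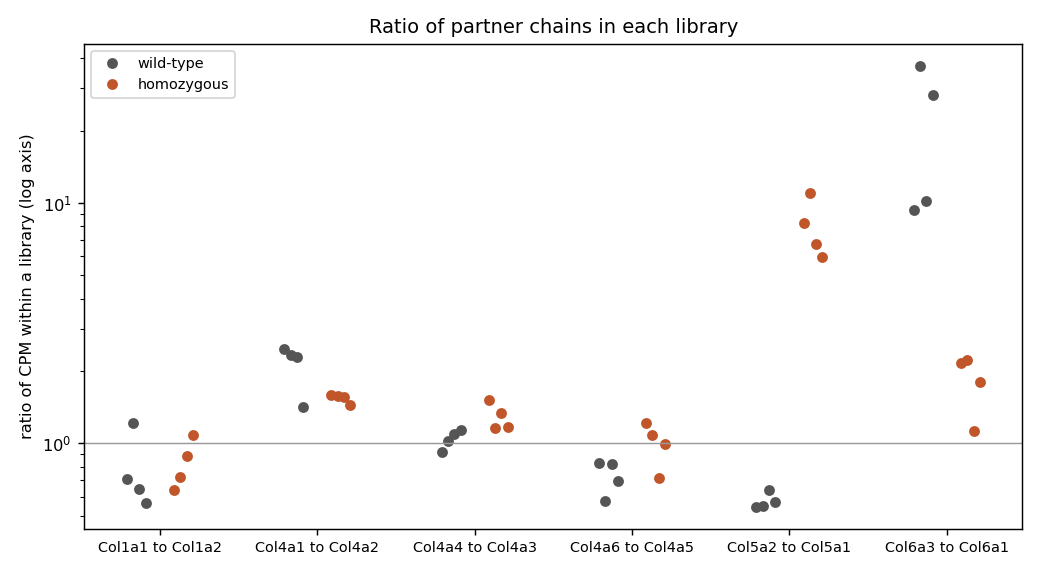
Ratio of CPM of partner collagen chains in each library (y, log axis), 4 wild-type and 4 homozygous libraries for each of 6 pairs, with 1 as the line. Wild-type and homozygous libraries separate for Col5a2 to Col5a1, Col6a3 to Col6a1 and Col4a4 to Col4a3, and overlap for the other 3 pairs.

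Genes that modify, process or bind collagen were read from 6 lists, whose counts stand against the 20.7% of all genes called higher and 20.4% called lower. Of 19 genes for hydroxylation, glycosylation and folding in the endoplasmic reticulum, 3 (15.8%) were called higher and 5 (26.3%) lower, the median log2 fold change being 0.03, while under library totals as the scaling none was called lower. Serpinh1, the collagen-specific chaperone HSP47, was at 18.1 ± 1.61 and 41.9 ± 11.7 CPM and rose (log2 fold change 1.21, SE 0.18, adjusted p 0.000634, edgeR). Lepre1, a collagen prolyl 3-hydroxylase, was at 17.9 ± 4.09 and 36.1 ± 8.81 CPM and rose (0.99, adjusted p 0.00312), and Leprel4 by 0.66 (adjusted p 0.0031). Another prolyl 3-hydroxylase, Leprel1, fell by 0.60 on the log2 scale (adjusted p 0.0242), but was not called without wild-type replicate 7 or 9 or homozygous replicate 15 or 17, nor with library totals as the scaling (-0.40, adjusted p 0.104). Of 13 genes for propeptide removal and crosslinking 4 (30.8%) were called higher and none lower, with a median of 0.26. They were the lysyl oxidase-like crosslinking enzymes Loxl2 (1.09, adjusted p 0.000396), Loxl3 (1.17, adjusted p 0.00208) and Loxl4 (0.84, adjusted p 0.0286) and the procollagen protease Tll1 (0.72, adjusted p 0.00234). The Loxl4 call ended without wild-type replicate 7 or 9 or homozygous replicate 16 or 17, with values from 0.67 to 1.04 over all libraries left out.

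Of 10 collagen receptors 4 (40.0%) were called higher and 1 (10.0%) lower, with a median log2 fold change of 0.45. Lair1, an inhibitory collagen receptor of immune cells, was at 60.7 ± 17.2 and 35.0 ± 4.19 CPM and fell (log2 fold change -0.79, adjusted p 0.00633, edgeR). The integrin gene Itga10 (0.54, adjusted p 0.0118), the endocytic receptor Mrc2 (0.52, adjusted p 0.0204) and the kinase Ddr2 (0.72, adjusted p 0.0358) rose, and none was called once the density trend was taken out (adjusted p 0.0599, 0.0834 and 0.0849). The Ddr2 call also ended without any one wild-type library, and the Mrc2 call without wild-type replicate 8 or 9 or homozygous replicate 17. Among 17 basement membrane partners 4 (23.5%) were called higher and 3 (17.6%) lower, shares near those of all genes, or 8 and 1 with library totals as the scaling. Pxdn, which crosslinks type IV collagen, was at 32.7 ± 2.46 and 99.0 ± 26.5 CPM and rose (1.60, SE 0.19, adjusted p 0.000183), and the laminin genes Lama3 (0.64) and Lama5 (0.64) rose too.

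Among 11 fibril-associated proteoglycans and glycoproteins 4 (36.4%) were called higher and none lower, Fmod (log2 fold change 0.67, adjusted p 0.00479, edgeR), Bgn (0.77, adjusted p 0.00662), Thbs1 (0.53, adjusted p 0.0151) and Thbs2 (0.45, adjusted p 0.0224). Fmod and Bgn encode small proteoglycans that bind fibrils. With the density trend removed Thbs1 (adjusted p 0.0587) and Thbs2 (adjusted p 0.0932) were not called. Nor was Thbs1 called without wild-type replicate 9, or Thbs2 without wild-type replicate 7 or 9 or homozygous replicate 16. Of 12 collagen-degrading proteases and inhibitors 1 (8.33%) was called in each direction: the gelatinase Mmp9 rose (1.02, adjusted p 0.014) and the inhibitor Timp4 fell (-1.01, adjusted p 0.00431).

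Markers of cells that could supply collagen RNA were counted in the same libraries. Of 12 markers of meningeal and perivascular fibroblasts none was called higher and 1, Pdgfra, lower (log2 fold change -0.37, adjusted p 0.0416, edgeR). Igf2, at 0.57, overlapped between genotypes and was not called (unadjusted p 0.0358, adjusted p 0.0766, edgeR). Summed levels of the list spanned 272 to 367 CPM in wild-type against 274 to 370 CPM in homozygous libraries. The call of Pdgfra, which the oligodendrocyte lineage list also holds, ended without most single libraries, being kept in 2 of 8 such fits. By mean density over both genotypes, all fibroblast markers but Igf2, Aldh1a2 and Slc13a4 lay inside the range of the comparison genes. Those inside ran from 3.41 (Mgp) to 6.58 CPM per kilobase of exon (Pdgfra). Whether fibroblast content changed was not tested. With library totals as the scaling 4 fibroblast markers were called higher and none lower, and with the abundance trend removed none was called in either direction. Of 12 endothelial markers 4 were called higher and 3 lower (264 to 294 and 270 to 339 CPM), or 4 and 0 with library totals, 4 and 5 with the abundance trend removed and 2 and 4 with the density trend removed. Of 10 pericyte and smooth muscle markers 5 were called higher and 2 lower (346 to 444 and 461 to 1880 CPM), with 4 to 5 higher and 1 to 2 lower under those settings. Cspg4, which oligodendrocyte precursors also express, at 488, 1449, 81.0 and 173 CPM in homozygous libraries, made up most of the largest of these sums, and its log2 fold change of 2.53 became 1.38 without homozygous replicate 16. Pdgfrb, the pericyte receptor, fell by 0.99 on the log2 scale. No marker of any list was at 0 in either genotype. That cannot gauge which cells were present, because the 132 comparison genes had counts as well. Among the 12 hippocampal neuron markers, Slc17a7, a vesicular glutamate transporter, was at 1049 ± 180 and 555 ± 63.3 CPM (log2 fold change -0.92, adjusted p 0.00193, edgeR). Slc17a7 was not called with the abundance trend (adjusted p 0.133) or density trend taken out (adjusted p 0.155). Neurod2 went the other way, from 75.7 ± 5.62 to 261 ± 201 CPM without overlap (1.79, adjusted p 0.0076), or 1.17 without homozygous replicate 15. Its call was kept with the abundance trend (adjusted p 0.00541) or density trend taken out (adjusted p 0.00391), and with library totals as the scaling (adjusted p 0.00426). Neuron markers were called lower in 7 and higher in 2 cases, astrocyte markers lower in 4 of 8 and higher in 1, and oligodendrocyte lineage markers lower in 6 of 9 and higher in 2. With the density trend removed the numbers lower were 1, 0 and 3 for these 3 lists, with the abundance trend removed 3, 0 and 4, and with library totals 5, 3 and 3. The part of these lists in the collagen values was not tested.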

How the data were processed

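The authors deposited raw counts per gene symbol for 8 libraries, 4 per genotype, on build mm10 per the submitters' processing notes. With aligner, counter, strand use and gene models not given in the sources used here, it is not known how reads of overlapping genes were assigned. Each column was matched to its animal by title, and 0 count columns lacked a sample. Low counts were removed with filterByExpr (minimum count 10) of edgeR 4.0.16 in R 4.3.3, leaving 20478 of 24078 entries. Homozygous was compared with wild-type after TMM scaling by the two-sided quasi-likelihood F test of edgeR, genotype being the only term. Exon lengths and positions came from GENCODE M21, which matched 97.7% of entries by current or older symbol. Alternatives were RLE size factors, library totals, other filters, robust dispersion, DESeq2 1.42.0, limma-voom 3.58.1, a threshold of 0.1, a loess trend (span 0.3) on abundance or density removed as an offset, and leaving out each library. The density fit left out entries without a length. The members, gene lists and comparison genes were chosen with earlier results of these data known. All type IV genes were named, and in other classes called members and the 2 densest. Where more than 24 came out, those with the smallest p in each class were given in every library. In the pathway lists at most 4 called members were named, and in marker lists at most 2. The choroid plexus and ependyma list was an exception, with Ttr and the called members Aqp1, Clic6 and Sostdc1 named. One gene of the pathway lists is not reported here by name. Col5a1 and Col9a3 by library, and Rab17, Espnl, Lrrfip1, Mtbp, Dscc1 and Enpp2 as neighbours, were added after their values were seen. The labels say that separate animals were used. The fits were first tested on simulated data in which few genes changed and no density trend or scaling shift was built in. That test does not bear on the choice of scaling. Figures used Python 3.11.15, SciPy 1.17.1 and matplotlib 3.10.9.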

Additional observations from a re-analysis of the deposited data

Results flagged for a closer look

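Of 86 groups of 4 libraries examined (43 genes in 2 genotypes), 1 held a library far from the others. Col10a1 in homozygous libraries was at 13.8, 13.8, 14.5 and 18 CPM, the highest being replicate 16. Its gap to the next value was 0.839 of the range, above Dixon's 95% critical value for 4 values. Chance flags about 1 in 20 groups. Without that library Col10a1 was not called (log2 fold change 0.38, adjusted p 0.106, edgeR).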

How the results depend on the processing

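No paired analysis was possible because the labels give no litter, batch or pairing. The number of collagen genes called higher moved from 19 to 29 with library totals only and to 12 with the density trend removed, and ran from 15 to 19 when single libraries were left out. The number lower was 2 under every alternative. Fibrillar genes called higher went from 5 to 8 with library totals. With the density trend removed type IV genes called higher went from 2 to 1 and the others from 12 to 7. The others ran from 8 to 12 without single libraries. No collagen gene that was called changed sign under any alternative. In the pathway lists, library totals gave 5 higher and 0 lower among hydroxylation and folding genes (3 and 5 reported), 8 higher and 1 lower among basement membrane partners (4 and 3), 8 higher among proteoglycans and glycoproteins (4) and 4 higher among proteases and inhibitors (1). Removal of the abundance trend gave 2 lower among hydroxylation and folding genes and 2 higher among proteases. Removal of the density trend gave 2 lower among hydroxylation and folding genes, 1 receptor higher (4 reported) and 2 proteoglycans and glycoproteins higher. Without single libraries the ranges were 1 to 5 lower for hydroxylation and folding, 1 to 5 receptors higher, 1 to 3 basement membrane partners lower, and 2 to 6 higher and 0 to 1 lower among proteoglycans and glycoproteins. The causes of these shifts were not tested.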

Other observations

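Ttr, which encodes transthyretin and is abundant in choroid plexus, differed widely between libraries of each genotype. It was at 431, 1018, 317 and 89.8 CPM in wild-type and at 594, 29.0, 723 and 18.5 CPM in homozygous libraries. Col9a3 was at 24.4, 37.3, 20.7 and 22.3 CPM and at 32.3, 16.3, 40.5 and 25.2 CPM in the same libraries, so that the library with the highest Ttr of each genotype also had the highest Col9a3. Col8a2 was lowest among homozygous libraries in replicate 16, at 37.8 CPM, but was at 59.6 CPM in replicate 18, where Ttr was lowest. Among wild-type libraries Col8a2 was highest, at 44.6 CPM, in replicate 10, where Ttr was lowest. These genes were singled out after their values were seen, and no relation was tested. The whole list of 10 choroid plexus and ependymal markers summed to 397 to 1322 CPM in wild-type and 198 to 1005 CPM in homozygous libraries, with 1 member called higher and 2 lower and a median log2 fold change of 0.40. Its members did not share one pattern. Aqp1 was higher in every homozygous library (14.3 ± 4.01 and 28.2 ± 4.95 CPM, adjusted p 0.00322, edgeR), and Clic6 was called lower (-0.71, adjusted p 0.0294), with the call kept in 4 of 8 fits without a single library. Sostdc1 was lower in every homozygous library (141 ± 42.8 and 26.5 ± 3.84 CPM, log2 fold change -2.42, adjusted p 4.58e-05, edgeR). Among wild-type libraries Sostdc1 was lowest, at 77.6 CPM, in replicate 8, where Ttr was highest.

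Emid2, an older symbol of Col26a1 that the naming rule does not cover, was at 9.14 ± 2.20 and 10.4 ± 2.13 CPM (log2 fold change 0.16, adjusted p 0.584, edgeR).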
